A study of Mus musculus with 12 samples.

Results

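The 8 genes Kcnip4, Pcdh9, Nrg3, Celf2, Nrxn3, Ptprd, Dlg2 and Lsamp were among the 10 genes with the most peaks in a map of Argonaute 2 (Ago2) and small RNA chimeras from adult mouse forebrain. Their peaks were taken as the rows of the deposited annotation that carry their symbols. The genes were chosen by their number of peaks in 1 of the 4 peak lists, forebrain replicates 1 to 4 (reps 1-4), so their counts and intron shares in that list are a description and were not tested. They held 3 of 766 peaks of excitatory neurons (0.392%, 95% Wilson interval 0.133 to 1.15), 34 of 3611 peaks of forebrain replicates 5 to 7 (reps 5-7, 0.942%, 0.675 to 1.31) and 16011 of 246180 peaks of reps 1-4 (6.50%, 6.41 to 6.60), where they were 8 of 11352 genes with a peak. They held 0 of 10 peaks of the immunoglobulin G (IgG) control, which allows a share of up to 30% when 3 peaks are taken as the limit for a count of 0.

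The assay cross-links Ago2 to RNA with ultraviolet light, precipitates it and ligates the small RNA to the RNA it holds, so that 1 chimeric read names both. Excitatory neurons were sampled with anti-myc (3 libraries), whole forebrain with anti-Ago2 (3 libraries in reps 5-7 and 4 in reps 1-4), and background with IgG (2 libraries). The mice were C57BL/6 and 10 to 12 weeks old, and the labels give 1 treatment text for all 12 libraries: a cross of Camk2a-Cre/ERT2 with a ROSA26 GFP/Eif2c2 (tagged Ago2) allele, tamoxifen at 2 mg a day for 5 days, and 14 to 21 days before harvest. The sources used here do not say which mice besides the anti-myc ones carried both alleles. Camk2a drives the Cre, so the tagged protein marks Camk2a-expressing cells. The authors called each list over pooled libraries, which leaves no replicate spread for any value, and depth per library is stated only as a range of 61 to 138 M reads.

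Of the excitatory marker genes, Camk2a had 14 peaks in the excitatory list and the other 4 had 0, while the 5 markers each of inhibitory neurons, astrocytes, microglia and vascular cells had 0 and those of oligodendrocytes had 4. In reps 5-7 the microglia and vascular markers also had 0 peaks, the inhibitory ones 4 and the astrocyte ones 32. Oligodendrocyte markers had 12 there, or 0.332% of that list against 0.522% of the excitatory list. The counts of 0 for microglia and vascular cells thus do not set the excitatory list apart. The 4 inhibitory peaks in reps 5-7 are also too few for a count of 0 to set the smaller excitatory list apart. The excitatory markers had 25 peaks in reps 5-7, 24 of them on Camk2a, or 0.692% of that list against 1.83% of the excitatory list. A gene with few peaks may be little expressed or little bound, which these lists cannot tell apart.

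MicroRNAs guide Ago2 to RNAs that carry a match to the seed, bases 2 to 8 of the miRNA, and the best studied sites lie in 3′ untranslated regions of spliced, cytoplasmic mRNA. Introns are removed from the transcript in the nucleus, and very long genes of neurons, many of them for synaptic adhesion and signalling, consist mostly of intron. The 8 genes share that build. Nrg3 encodes a neuregulin, a ligand of the receptor Erbb4. Pcdh9 (a protocadherin), Nrxn3 (a presynaptic neurexin), Ptprd (a receptor tyrosine phosphatase that organises presynaptic terminals) and Lsamp (a membrane-anchored immunoglobulin protein) encode adhesion molecules. Dlg2 encodes a postsynaptic scaffold, Kcnip4 a calcium-binding partner of A-type potassium channels, and Celf2 an RNA-binding protein that regulates splicing.

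In reps 1-4, introns held 15566 of the 16011 peaks on the 8 genes (97.2%, 97.0 to 97.5), against 44.1% (43.9 to 44.3) of the peaks in all other rows. The remaining 445 lay in exons: 241 in 3′ UTRs, 183 in coding sequence (CDS) and 21 in 5′ UTRs. All 8 genes were mostly intronic, but their exon peaks ranged widely.

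The ligand gene Nrg3 had 2096 intron peaks and 6 exon peaks. Among the adhesion genes, Pcdh9 had 2304 intron and 46 exon peaks. Nrxn3 had 1723 intron and 37 exon peaks. Of the other adhesion genes, Ptprd had 1606 intron and 91 exon peaks, and Lsamp had 1383 intron and 45 exon peaks. The scaffold gene Dlg2 stood at the other end from Nrg3, with 1535 intron and 140 exon peaks, 83 of them in its 3′ UTR and 51 in CDS. Kcnip4 had the most intron peaks (3040) and the fewest exon peaks (5) of the 8. The splicing regulator Celf2 had 1879 intron and 75 exon peaks, and 52 of the exon peaks lay in its 3′ UTR. The intron share thus ran over the 8 genes between 91.6% on Dlg2 (90.2 to 92.9) and 99.8% on Kcnip4 (99.6 to 99.9).

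By total number of peaks, Lsamp (1428) was the last gene taken. Just outside were Csmd1 (1383), the channel regulator Fgf14 (1379), the mitochondrial 12S rRNA gene mt-Rnr1 (1360) and the synaptic adhesion genes Cadm2 (1290) and Nlgn1 (1198). Gm42418, an rRNA-related gene with 1613 peaks and 0 in introns, ranked above Lsamp. The genes most like the 8 by number of intron peaks were Fgf14 (1374), Csmd1 (1371), Cadm2 (1226), Nlgn1 (1179) and Fam155a (1064), each at least 95% intronic.

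**Figure D1:**
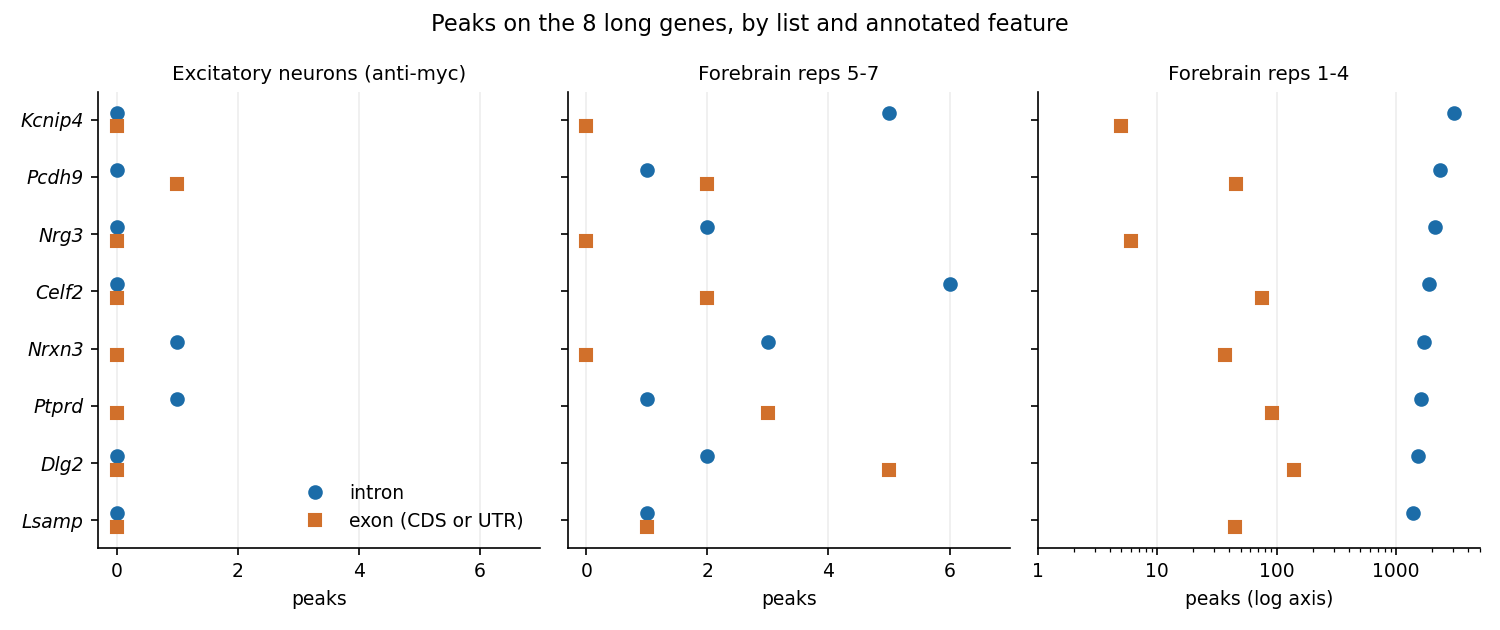
Number of peaks on each of the 8 genes in introns (circles) and exons (squares) in the excitatory, reps 5-7 and reps 1-4 lists; the reps 1-4 axis is logarithmic and the others are linear. In reps 1-4 intron peaks (1383 to 3040) lie far to the right of exon peaks (5 to 140), while in reps 5-7 Pcdh9, Ptprd and Dlg2 have more exon than intron peaks.

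In the smaller lists, which played no part in choosing the genes, introns held a smaller part of their peaks. In excitatory neurons 2 of 3 peaks lay in introns (66.7%, 20.8 to 93.9), and in reps 5-7 21 of 34 did (61.8%, 45.0 to 76.1). Between these lists the shares gave a Fisher's exact p of 1.0, two-sided, and 3 peaks are too few to tell the lists apart. In the same lists introns held 3.80% of all other excitatory peaks (2.66 to 5.41) and 5.51% of all other reps 5-7 peaks (4.81 to 6.30).

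Counted the other way, the 8 genes supplied 2 of 31 intron peaks in excitatory neurons (6.45%, 1.79 to 20.7), 21 of 218 in reps 5-7 (9.63%, 6.39 to 14.3) and 15566 of 117113 in reps 1-4 (13.3%, 13.1 to 13.5). They supplied 0.172%, 0.546% and 0.428% of the exon peaks of those lists. In each of the 3 lists they made up a larger part of the intron peaks than of the exon peaks, with a wide interval in the excitatory list.

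Gene shares were compared between excitatory neurons and reps 5-7 by Fisher's exact test, two-sided, over the 32 genes with at least 10 peaks in both lists together. The test called 7 of them (21.9%) at a Benjamini-Hochberg adjusted p under 0.05. None of the 8 long genes reached 10 peaks (0 of 8), so none was tested. Of the 8, Kcnip4, Nrg3, Celf2, Dlg2 and Lsamp had 0 excitatory peaks, each of which allows up to 0.392% of that list by the same limit of 3 peaks.

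All 3 excitatory peaks had a counterpart of the same small RNA in reps 1-4. The Nrxn3 peak joined miR-124-3p to an intron at chr12:89089538-89089559 (mm10, plus strand) with a score of 5. The score is the authors' own whole number for a peak. Its definition is not given in the sources used here, and its lowest value, 3, equals the minimum number of reads in the calling summaries. The same Nrxn3 site scored 117 in reps 1-4, the second highest of 1723 intron peaks on that gene. Ptprd had an intron peak of miR-124-3p (chr4:76739751-76739776, minus strand, score 3) that scored 14 in reps 1-4. Pcdh9 had a 5′ UTR peak of miR-29a-3p (chr14:93890202-93890224, minus strand, score 3) that scored 13 in reps 1-4.

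In reps 5-7 every one of the 8 genes had at least 2 peaks. Celf2 had 8, of which 6 were intronic, and its top one joined miR-153-3p to the 3′ UTR (chr2:6539932-6539952, score 4), the site with the highest exon score on Celf2 in reps 1-4 (125). Dlg2 had 7, of which 5 were exonic, led by miR-124-3p in the 3′ UTR (chr7:92448828-92448847, score 6), with miR-29a-3p at 2 further 3′ UTR sites (score 5 each). The 5 Kcnip4 peaks were all intronic with a score of 3, and 4 of them carried miR-124-3p.

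Ptprd had 4, of which 3 were in its 3′ UTR, and miR-124-3p at chr4:75943382-75943398 had the highest score of any of the 34 (8). Pcdh9 and Nrxn3 had 3 peaks each, with the Pcdh9 maximum (5) from miR-26a-5p in the 3′ UTR and the Nrxn3 peaks all intronic at a score of 3. Nrg3 had 2 intron peaks, of miR-22-3p and miR-222-3p. Lsamp had 1 CDS peak of miR-124-3p (chr16:41888935-41888953, score 7) and 1 intron peak of miR-124-3p (chr16:40264416-40264444, score 3).

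Reps 5-7 intron peaks on the 8 genes had lower scores than exon peaks. Of 21 intron peaks 19 had the lowest score of 3 and the highest was 4, while 3 of 13 exon peaks had a score of 3 and the highest was 8. The intron peaks were also wider, with a median of 42 bases against 20 for the exon peaks. Of the intron peaks 13 of 21 (61.9%, 40.9 to 79.2) shared at least 1 base, the strand and the small RNA name with a reps 1-4 peak, and of the exon peaks 13 of 13 (100%, 77.2 to 100). For all other genes the shares were 68.0% of intron peaks (61.2 to 74.1) and 91.6% of exon peaks (90.4 to 92.6). Because the 8 genes were chosen for their reps 1-4 peaks, these shares are a description and were not tested. Counted together, 76.5% of the 34 peaks were found again, a share that dropped to 44.1% when an overlap of 50% of both peaks was required.

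Score and annotation went together in reps 1-4 as well. Intron peaks on the 8 genes had a median score of 4 and 5.73% of them scored at least 10. Exon peaks had a median of 5 and 24.5% of them scored at least 10. In all other genes intron peaks had a median of 3 and exon peaks a median of 5. Median width was 29 bases for intron peaks and 20 bases for exon peaks of the 8 genes, and 28 and 20 bases in all other genes.

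Among intron and exon peaks of the 8 genes, the intron share was 98.4% at a score of 3 (6790 of 6897), 96.9% at scores of 5 to 9, 92.1% at 10 to 19, 80.0% at 20 to 49 and 56.7% at 50 and above (17 of 30, 39.2 to 72.6). In all other genes the shares over the same bands were 62.5%, 40.9%, 20.5%, 9.94% and 5.77%. Intron shares were thus lower in each higher band in both sets. Among the 3611 reps 1-4 peaks with the highest scores, as many as reps 5-7 holds, the 8 genes had 29 peaks (0.803% of them), and 16 of the 29 (55.2%) were intronic. These bands were chosen after the values were seen.

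**Figure D2:**
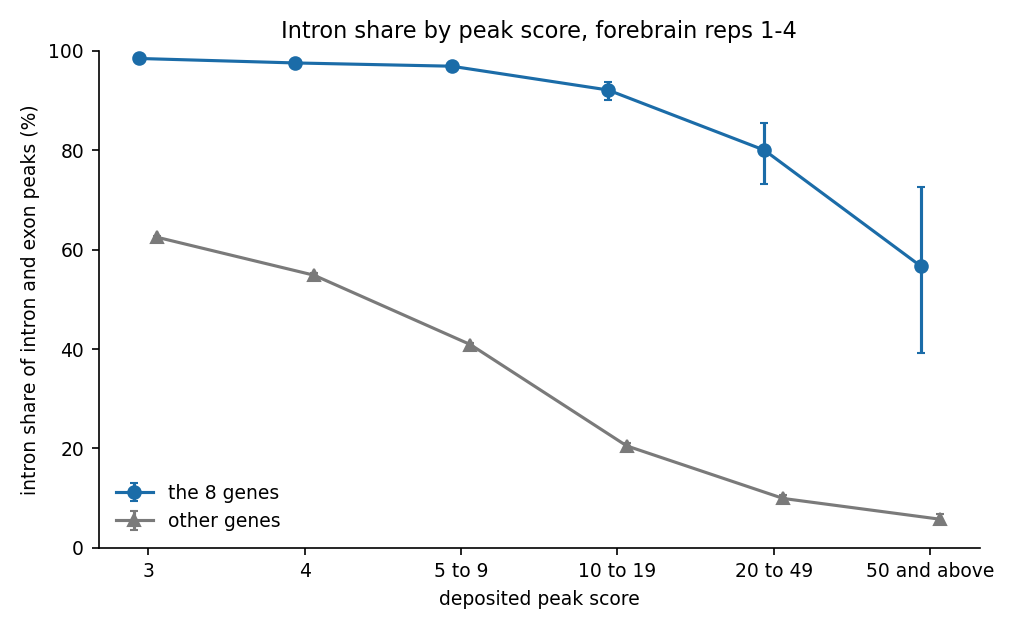
Share of intron among intron and exon peaks (%) in 6 bands of the deposited peak score in reps 1-4, for the 8 genes (circles) and all other genes (triangles), with 95% Wilson intervals. The share on the 8 genes is 98.4% at a score of 3 and 56.7% at 50 and above, and on other genes 62.5% and 5.77%.

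On 6 of the 8 genes the highest-scoring intron peak carried miR-124-3p. On Nrxn3, miR-124-3p reached 120 at chr12:89001762-89001765 and 117 at chr12:89089542-89089556. On Celf2, miR-9-5p reached 113 at chr2:6869173-6869174, inside an intron of 149658 bases. On Kcnip4 the top peak was miR-124-3p (96, chr5:48937097-48937107), which was also present in reps 5-7. The top intron peaks of Ptprd (77), Dlg2 (76), Pcdh9 (72) and Nrg3 (44) were likewise miR-124-3p, and on Lsamp it was miR-26a-5p (61).

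Exon maxima were higher than intron maxima on Lsamp, Ptprd, Celf2 and Dlg2, and lower on Nrxn3, Pcdh9, Nrg3 and Kcnip4. Lsamp held the highest score of the 8 genes, 201, for miR-9-5p at chr16:41955231-41955238 in CDS. Ptprd reached 143 for miR-124-3p in its 3′ UTR at chr4:75943381-75943394. Celf2 reached 125 for miR-153-3p in its 3′ UTR at chr2:6539934-6539947. The Dlg2 maximum was 80 for miR-128-3p in CDS at chr7:91997178-91997189. The others were 53 on Pcdh9 (miR-26a-5p, 3′ UTR), 27 on Nrxn3 (miR-9-5p, 3′ UTR), 7 on Nrg3 (miR-29a-3p, CDS) and 6 on Kcnip4 (miR-124-3p, CDS).

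The leading CDS peaks of Lsamp and Dlg2 came as pairs that faced each other across an intron. The peaks of a pair are counted separately here, and whether a pair is a single site in spliced RNA was not tested. On Lsamp, miR-9-5p scored 184 at the last base of one exon (chr16:41889147) and 201 from base 4 of the next, 66080 bases of intron away. miR-26a-5p scored 64 and 59 beside the same ends. On Dlg2, miR-128-3p scored 53 at the last 2 bases of one exon (chr7:91968255-91968256) and 80 near the start of the next, across an intron of 28910 bases.

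Over the 149 annotated introns with a peak, 10 combinations of a small RNA and an intron had exon peaks of that small RNA within 25 bases of both ends, 5 on Dlg2 and 5 on Lsamp. The Lsamp combinations also included miR-26b-5p, let-7g-5p and miR-24-3p. Those on Dlg2 included miR-124-3p, miR-30c-5p, miR-30d-5p and, at a further intron, miR-138-5p. Of the 183 CDS peaks of the 8 genes, 32 (17.5%) reached an end of their exon. This search was made after the Lsamp and Dlg2 values were seen.

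Most intron peaks lay far from exon borders. Of the 15566, 15134 (97.2%) lay at least 1000 bases from both ends of their intron, 52 lay within 100 bases of an end and 10 crossed one. They also followed the strand of the gene. Within the RefSeq spans of the 8 genes 16452 reps 1-4 peaks lay on the strand of the gene and 1 on the other strand (miR-9-5p, score 3, within Nrxn3 at chr12:90227574-90227593). Of the sense peaks 441 carried another annotation, mainly on Kcnip4 (194, all on transcripts of the unproven class TEC) and Dlg2 (238, of which 125 were intergenic, 71 TEC and 39 lincRNA). These are not counted on the 8 genes, so the intron numbers of Kcnip4 and Dlg2 are lower than the number of sense peaks in their spans.

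Along the genes, intron peaks were unevenly spread. When the stretch between the first and last intron peak of a gene was cut into 10 equal parts, the first 5 parts held 88.3% of the intron peaks of Dlg2, 81.2% of Kcnip4, 79.5% of Nrg3, 77.1% of Pcdh9 and 64.5% of Ptprd. They held 48.4% on Lsamp, 37.9% on Nrxn3 and 21.8% on Celf2. On Kcnip4 the second part held the most peaks (588) and the tenth the fewest (10). On Celf2 the seventh part alone held 761 of 1879 (40.5%).

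Single introns took much of each total. On Nrg3 the intron at chr14:39012099-39471972 (459874 bases) held 1452 peaks, or 69.3% of the intron peaks of the gene. On Pcdh9 one of 325120 bases held 1505 (65.3%). On Celf2 one of 149658 bases held 983 (52.3%), at 65.7 peaks per 10 kb. The leading intron held 45.7% on Nrxn3, 37.8% on Ptprd (where an overlapping intron held 29.5%) and 36.2% on Lsamp. The share was 22.5% on Kcnip4 and 15.3% on Dlg2, which had peaks in the most annotated introns (34). Within Kcnip4 and Dlg2 other genes are annotated on the same strand, and some neighbouring introns are parted by gaps. On Kcnip4 one ends at chr5:49408792 and the next with a peak begins at chr5:49411833. Whether such introns are pieces of a longer one was not tested, and the leading shares and the number of introns on these genes depend on it. Introns of different transcripts can overlap, and a peak was counted in the 1 intron the authors gave it. Of the 149 introns, 19 overlap another one counted on the same gene, and their own numbers depend on that choice. Density differed widely among the introns that overlap no other: those of at least 10 kb ran on Celf2 between 5.56 and 65.7 peaks per 10 kb, and on Kcnip4 between 0.158 and 57.2.

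Within annotated introns, more peaks lay 5′ than 3′ of the midpoint in most cases. On Kcnip4 and Dlg2 an annotated intron may be a piece of a longer one, so its midpoint need not be that of the full intron. Of the 48 introns with at least 50 peaks that overlap no other, 37 had more peaks in the 5′ part, with a median of 57.8% 5′. The interval of the 5′ share lay above 50% in 27 introns and below it in 2. With the overlapping introns included, 45 of 56 had more peaks in the 5′ part. The leading introns of Nrg3 (79.4% 5′ of the midpoint, 77.3 to 81.4), Celf2 (76.1%, 73.3 to 78.7) and Lsamp (74.4%, 70.4 to 78.0) were among the 27. That of Kcnip4 (52.3%, 48.5 to 56.0) had an interval that included 50%. Leaving out overlapping introns was chosen after the values were seen.

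**Figure D3:**
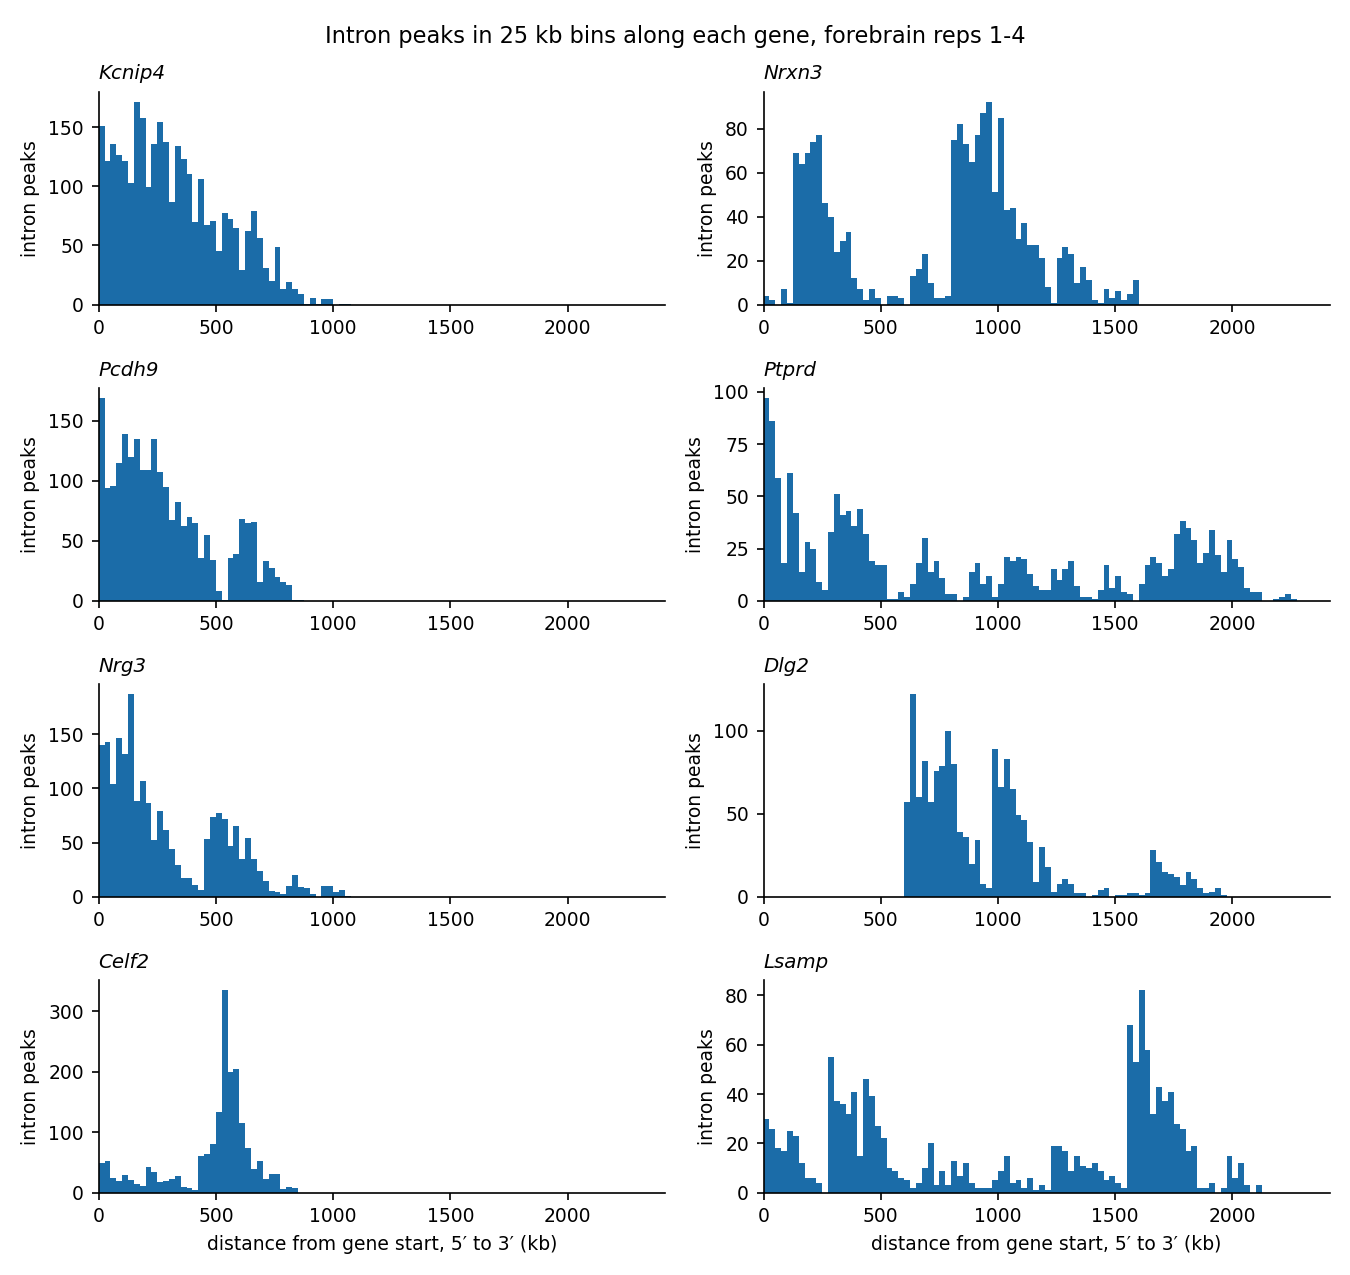
Number of reps 1-4 intron peaks in bins of 25 kb against the distance from the RefSeq start of each gene (kb), 5′ to 3′, on a common distance axis with a separate count axis per gene. Dense stretches alternate with sparse ones along the genes: on Nrg3 the bin at 425 kb holds 6 peaks and that at 500 kb 77, and on Pcdh9 the bin at 525 kb holds 1 and that at 600 kb 68. The first 600 kb of Dlg2 hold no intron peak annotated to it.

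Most genes of like length had fewer intron peaks. By RefSeq, the 8 genes span 856648 (Celf2) to 2270506 bases (Ptprd). They had 62.9 (Lsamp) to 268 (Kcnip4) intron peaks per 100 kb, with a median of 148. The 81 other protein-coding genes compared here that are at least as long as Celf2 had a median of 8.63 per 100 kb, with quartiles of 2.78 and 27.7, and 7 of them had no peak at all. Of these 81, 7 had a higher density than Lsamp: Nlgn1 (129), Cadm2 (127), Nrg1 (88.5), Csmd1 (83.5), Tenm2 (81.8), Opcml (70.3) and Rbfox1 (65.5). The 8 genes were chosen for their peaks, so their place at the top of this comparison was not tested. How much each gene is transcribed was not measured.

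**Figure D4:**
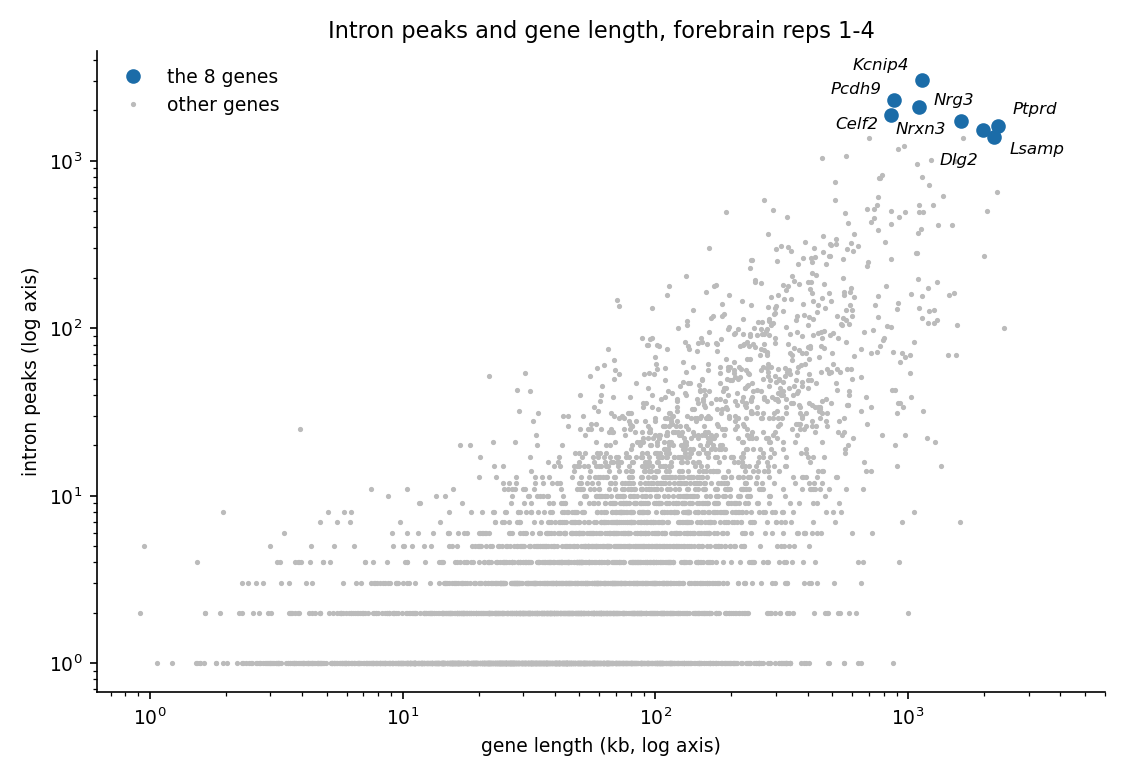
Number of intron peaks in reps 1-4 against gene length (kb), both on log axes, for the 8 genes (large circles, named) and other protein-coding genes with an intron peak (small dots). The 8 genes lie at the upper right, with 1383 to 3040 intron peaks, above other genes of like length.

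Relatives of the 8 genes were less uniform. The median intron share in reps 1-4 was 97.4% over the 8 genes and 47.6% over a list of 21 paralogs, of which all had at least 10 peaks and 10 had more intron than exon peaks. The neuregulin Nrg1 (1084158 bases) had 960 intron and 3 exon peaks, and the Lsamp relatives Opcml and Ntm had 798 and 497 intron peaks and 14 and 27 exon peaks. The Ptprd relative Ptprf (83193 bases) had 1 intron and 21 exon peaks. The Dlg2 relative Dlg4 (28333 bases) had 5 intron and 30 exon peaks. For the Celf2 relative Celf5 (23504 bases) the numbers were 2 and 31.

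Partner genes also differed among themselves. Of 15 genes for binding partners of neurexins, Nrg3, Kcnip4 and Dlg2, 14 had a reps 1-4 peak and 8 were mostly intronic. The neurexin ligand Nlgn1 had 1179 intron and 19 exon peaks, Lrrtm4 had 826 and 21, and the channel gene Kcnd2, whose protein Kcnip4 binds, had 749 and 30. Erbb4, the receptor of Nrg3, had 282 intron and 14 exon peaks. The short ligand genes Nlgn2 (14662 bases) and Nlgn3 (22172 bases) had 0 intron peaks and 10 and 28 exon peaks. Cbln4 had no peak.

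A further list of 30 long neuronal genes was mostly intronic throughout (30 of 30), with a median intron share of 95.9%. The median number of intron peaks was 1801 over the 8 genes and 301 over the 30. The ankyrin genes Ank3 and Ank2 had the lowest intron shares of the 30 (59.5% and 60.4%). In reps 5-7, 21 of the 34 peaks on the 8 genes and 21 of the 41 peaks on the 30 (51.2%) were intronic. In excitatory neurons 2 of 3 and 2 of 9 were.

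The small RNAs that led on the introns of the 8 genes are shown with their mature sequences, since the comparisons that follow turn on which small RNA a peak carries. The sequences are RefSeq's for build GRCm38.p6, and capitals mark the seed, bases 2 to 8. Of the 22 small RNAs with at least 100 intron peaks on the 8 genes, 21 matched an entry. miR-124-3p is named without sequence.
miR-9-5p: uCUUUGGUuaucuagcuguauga
miR-26a-5p: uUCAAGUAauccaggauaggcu
miR-128-3p: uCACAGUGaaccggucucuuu
miR-125b-5p: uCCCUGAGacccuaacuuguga
miR-29a-3p: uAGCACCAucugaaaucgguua
miR-29b-3p: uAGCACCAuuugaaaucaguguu
miR-9-3p: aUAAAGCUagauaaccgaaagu
miR-181a-5p: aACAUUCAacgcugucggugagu
miR-30c-5p: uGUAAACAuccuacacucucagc
miR-153-3p: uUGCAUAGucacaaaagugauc
miR-137-3p: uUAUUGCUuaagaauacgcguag
let-7a-5p: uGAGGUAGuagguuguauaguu
let-7c-5p: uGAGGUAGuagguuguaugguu

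In reps 1-4, 181 small RNAs had a peak in these introns and 79 in the exons. miR-124-3p, a neuronal miRNA, led on both, with 4928 intron peaks (31.7%, 30.9 to 32.4) and 98 exon peaks (22.0%, 18.4 to 26.1). miR-9-5p, which is abundant in neural cells, followed with 2056 intron (13.2%) and 45 exon peaks (10.1%). The rest of the leading 10 in introns were miR-26a-5p (8.68%), miR-128-3p (5.29%) and miR-125b-5p (5.27%), then miR-29b-3p (2.87%), miR-29a-3p (2.86%), miR-9-3p (2.83%), miR-181a-5p (1.75%) and miR-30c-5p (1.72%). In exons let-7a-5p (3.15%), miR-138-5p (2.47%) and let-7c-5p (1.80%) took places among the leading 10.

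miR-124-3p led on the introns of each of the 8 genes. Its share ranged between 27.2% of intron peaks on Kcnip4 (25.7 to 28.8) and 37.4% on Lsamp (34.9 to 40.0), and these ends did not overlap. miR-9-5p ranged over the 8 genes between 10.9% and 16.1%, miR-26a-5p between 7.95% and 10.3%, and miR-128-3p between 3.98% and 6.44%. In reps 5-7, 12 of the 21 intron peaks (57.1%, 36.5 to 75.5) and 3 of the 13 exon peaks carried miR-124-3p, and in excitatory neurons both intron peaks did.

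Introns and exons of the 8 genes were compared by Fisher's exact test, two-sided, over the 65 small RNAs with at least 10 peaks in both together, and 3 were called (4.62%). miR-124-3p had the higher share in introns (31.7% against 22.0%, odds ratio 1.64, adjusted p 6.50e-04). This direction was not particular to the 8 genes: in all other genes miR-124-3p had 38.7% of intron and 21.1% of exon peaks. let-7a-5p had a lower share in introns, with 162 of 15566 peaks (1.04%) against 14 of 445 exon peaks (3.15%, odds ratio 0.324, adjusted p 0.0134). miR-185-5p was also lower, with 7 intron and 3 exon peaks (odds ratio 0.0663, adjusted p 0.0479). At an unadjusted p under 0.05 there were 19. These calls rest on the 445 exon peaks: without Dlg2, which has 140 of them, none remained (miR-124-3p 7.77 points higher, adjusted p 0.0846), and without Ptprd 1 did. The test treats peaks as independent, compares sets of peaks within 1 pooled list and covers counting error only.

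Against the introns of all other genes, the test covered 137 small RNAs and called 27 (19.7%), 20 with a higher share and 7 with a lower share on the 8 genes. The peaks tested come from the list by which the 8 genes were chosen for their number of peaks. Whether that number bears on the shares was not tested. miR-124-3p was the largest difference in points: 31.7% of intron peaks on the 8 genes against 38.7% (38.4 to 39.0) on other genes (odds ratio 0.735, adjusted p 1.60e-62). Taken gene by gene, its share had a median of 32.7% on the 8 genes and 39.2% on the 200 other genes with at least 100 intron peaks, whose quartiles were 34.6% and 42.3%. Single genes of the 200 lay between 5.73% and 55.1%, which spans the 27.2% to 37.4% of the 8. Against the pooled introns of those 200 genes the difference for miR-124-3p was -4.82 points (adjusted p 2.84e-27). Here too the p-values treat peaks as independent and do not cover the spread between genes.

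Of the 10 small RNAs with the most intron peaks on the 8 genes, 4 had a higher share there than on other introns, 2 had a lower share and 4 (miR-29b-3p, miR-125b-5p, miR-128-3p and miR-26a-5p) did not pass the test. miR-9-5p had 13.2% against 11.3% (odds ratio 1.20, adjusted p 4.74e-10). miR-181a-5p had 1.75% against 1.16% (odds ratio 1.52, adjusted p 5.11e-08). miR-9-3p and miR-30c-5p were also higher (odds ratios 1.26 and 1.47). Lower shares were those of miR-124-3p and of miR-29a-3p (odds ratio 0.864, adjusted p 0.0255).

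Among the small RNAs called, the 5 highest odds ratios were those of miR-411-3p (5 and 5 peaks, 6.53), miR-300-3p (23 and 71 peaks, 2.11), miR-23b-3p (61 and 224 peaks, 1.78), miR-137-3p (174 and 644 peaks, 1.77) and miR-204-5p (44 and 169 peaks, 1.70). Of these, miR-137-3p was also called against the 200 genes with at least 100 intron peaks (adjusted p 7.65e-04) and at or above the median score (adjusted p 8.90e-04). miR-300-3p and miR-204-5p missed the threshold in both settings (adjusted p 0.176 and 0.142 against the 200 genes, 0.185 and 0.411 at or above the median score). miR-23b-3p missed it in the second of these (adjusted p 0.331), and miR-411-3p had too few peaks to be tested in either.

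The 5 lowest odds ratios among those called were those of miR-3470b (1 peak on the 8 genes and 132 on other introns, 0.0494, adjusted p 3.72e-06), miR-3473b (4 and 240 peaks, 0.108, adjusted p 6.52e-09), miR-3470a (1 and 52 peaks, 0.125), miR-706 (9 and 257 peaks, 0.228, adjusted p 1.13e-06) and miR-7667-5p (3 and 78 peaks, 0.251). Of these, miR-3473b alone was still called against the introns of the 200 genes (adjusted p 0.0424), and miR-3470a and miR-7667-5p were not called among the peaks with a score of at least the median. Some rarer names that missed the threshold had higher or lower odds ratios, such as miR-19b-3p (5 and 7 peaks, 4.66) and miR-7669-3p (0 and 24 peaks).

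The number called depended on what was compared. It was 10 against the 200 genes with at least 100 intron peaks, 13 at or above the median score and 15 without Kcnip4. A share is relative to all small RNAs, so a lower share of one raises those of others: with the miR-124-3p peaks left out of both sets 16 were called, miR-181a-5p and miR-30c-5p among them (0.679 and 0.596 points higher, adjusted p 1.25e-04 and 0.00116), and miR-9-5p was not (0.920 points higher, adjusted p 0.126), nor was miR-9-3p.

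**Figure D5:**
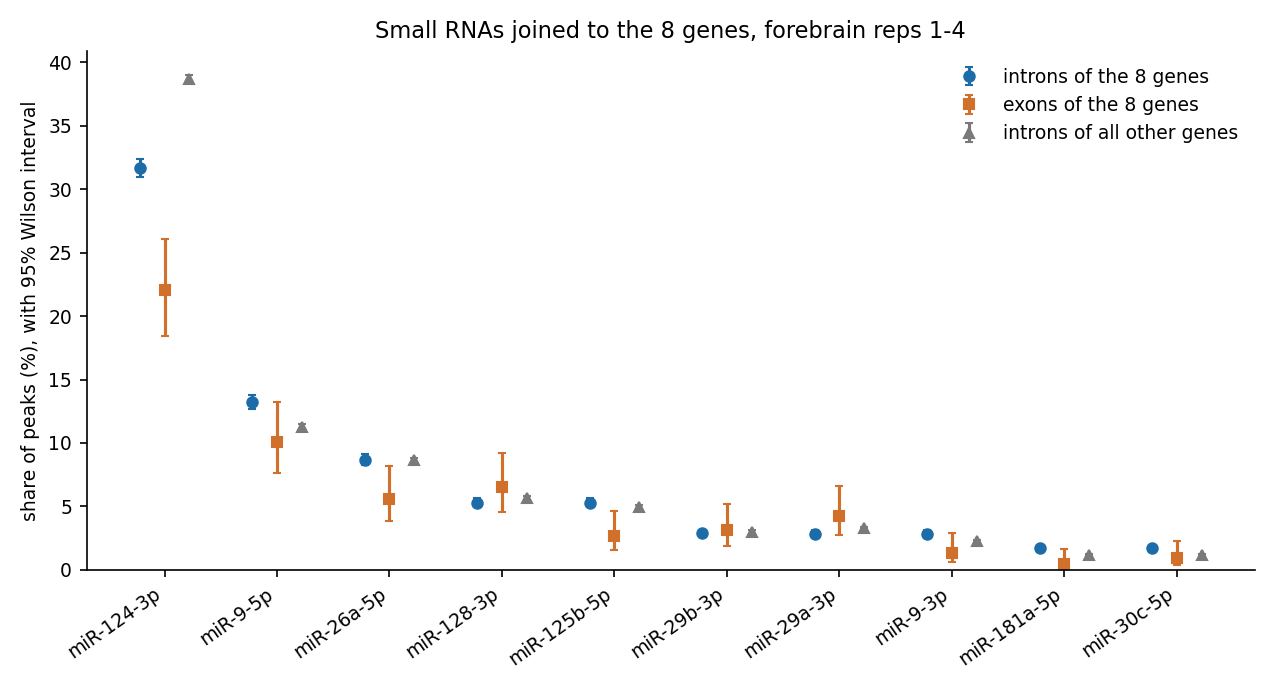
Share of reps 1-4 peaks (%) carried by the 10 small RNAs with the most intron peaks on the 8 genes, in introns of the 8 genes (circles), their exons (squares) and introns of all other genes (triangles), with 95% Wilson intervals. miR-124-3p lies at 31.7%, 22.0% and 38.7%, and the other 9 lie at 13.2% or lower in the introns of the 8 genes.

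Peaks of different small RNAs shared a place at a minority of sites. Merging overlapping peaks left 12585 intron sites on the 8 genes, 84.8% of them with 1 small RNA, and 263 exon sites, 70.3% with 1. On introns of other genes 92.4% of sites had 1. Celf2 had the site with the most, 15 small RNAs at chr2:6837547-6837616 in an intron (summed score 75), led by miR-135a-5p, miR-124-3p and miR-145a-5p. On Kcnip4, 13 stacked at chr5:49332541-49332677 in an intron, with miR-29a-3p and miR-29b-3p among the first. In exons, 11 stacked in the 3′ UTR of Ptprd at chr4:75942020-75942101 and 10 in the 3′ UTR of Dlg2 at chr7:92444971-92445053.

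The shared seeds listed above appeared in which small RNAs coincided. Pairs were formed among 31 small RNAs with mature sequences, each counted in both directions. Pairs of the same seed overlapped at a median of 17.0% of the peaks of the first (40 pairs, 4.39% to 49.3%). Most of these were among let-7 members, and the rest within miR-29, miR-125 and miR-30. Pairs of different seeds overlapped at a median of 0.641% (890 pairs, up to 12.7%). Of the 445 intron peaks of miR-29a-3p, 132 (29.7%) overlapped one of miR-29b-3p, which has the same seed and differs further on. Of the 253 of let-7c-5p, 47 (18.6%) overlapped one of let-7a-5p. Whether reads of near-identical small RNAs were divided between names was not tested, and such peaks need not be independent sites.

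Target sequence could be read at a few places, because the RefSeq windows used here cover 250 bases before to 50 bases after a transcript start. For 7 of the 8 genes there were 18 windows, 5 peaks lay wholly inside one, and 3 of those belonged to small RNAs with a mature sequence. One of the 3 is 2 bases wide, too short for a 7-letter match, and of the other 2 one held the complement of its seed. It is the miR-128-3p peak in an intron of Nrxn3 (chr12:88953260-88953284, plus strand, score 3), shown because its letters hold CACTGTG, the complement of the seed CACAGUG, in capitals. The Dlg2 5′ UTR peak of miR-9-5p (chr7:91090793-91090815, plus strand, score 5) is shown beside it as a peak with no match to ACCAAAG.
Nrxn3 site of miR-128-3p: ctgatcgaaattccCACTGTGtgca
Dlg2 site of miR-9-5p: tgctatatatagccaatgaagag
CACTGTG occurs in 3.44% of 32851 RefSeq promoter windows of 300 bases on the strand of the gene and in 6.81% on either strand, and ACCAAAG in 2.10% and 4.23%. A match is a description of letters and not a shown site, and a peak with none says only that these letters are not in it.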

How the data were processed

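The authors deposited 4 peak lists with annotation, 1 per group of pooled libraries, on mm10 per the submitters' processing notes and the calling summaries. Per the deposited summaries a peak needed at least 3 reads and 2 libraries. The deposited score is a whole number per peak, not scaled to library size, and the sources used here name neither aligner nor peak caller. The score was used within a list, to describe peaks and, in the alternatives, to filter, rank or weight them. Peaks were counted per gene and feature, with CDS and UTR rows as exon. Shares were given with Wilson 95% intervals (SciPy 1.17.1), which cover counting error only, since each list pools its libraries. Molecular identifiers of reads were not used here. Fisher's exact tests, two-sided, were Benjamini-Hochberg adjusted over all features with at least 10 peaks. They compare lists or sets of peaks. The tests were tried on simulated data in which each peak was drawn independently, so overlapping peaks and differences between genes were not covered. Gene lengths, names and sequences are RefSeq's for GRCm38.p6. The members, gene lists and tests were chosen with earlier results of these data known. Named were all members, the leading 10 small RNAs per list, up to 5 of the highest and lowest odds ratios per test, the top peak per gene and feature, and neighbours in rank. 1 gene that this rule would name is not reported here. Alternatives varied the score minimum, merging, overlap, exon definition, background genes and members.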

Additional observations from a re-analysis of the deposited data

How the results depend on the processing

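The intron share of peaks on the 8 genes depended on which peaks were kept. In reps 1-4 (97.2%) it was 96.3% at or above the median score, 98.0% over merged sites, 94.2% over summed scores and 55.2% among the 3611 highest-scoring peaks, where 29 remained. In reps 5-7 (61.8%) it was 16.7% at or above the median score, over 12 peaks, and in excitatory neurons (66.7%) 100%, over 1 peak. The share of reps 5-7 peaks found again was 76.5%, 44.1% with an overlap of 50% of both peaks and 88.2% with any small RNA. The small RNAs called between introns and exons of the 8 genes (3) became 1 at or above the median score, 5 without miR-124-3p peaks (an alternative chosen after seeing the data), and 0 to 4 with 1 gene left out, with 0 without Dlg2 (11 at an unadjusted p under 0.05) and 1 without Ptprd. Those called against other introns (27) became 13 at or above the median score, 10 against genes with at least 100 intron peaks, 16 without miR-124-3p peaks, and 15 to 30 with 1 gene left out, with 15 without Kcnip4. Genes called between excitatory neurons and reps 5-7 (7) became 1 at or above the median score, with 0 of the 8 genes tested in each setting. The causes were not tested. No named small RNA changed direction in a setting that tested it, and 6 of 25 values for introns against exons and 40 of 170 against other introns missed the threshold. Seed matches at the peaks were not run, since no genome of the build was used here. No paired analysis was possible because each list pools its libraries and carries no replicate columns. With 3 excitatory and 34 reps 5-7 peaks, differences on single genes were not detectable at this depth.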
